A study of Mus musculus with 72 samples.

Results

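The Prickle1 amplicon is a control region that carries high methylation on both parental alleles of the mouse. It was read together with imprinted regions by IMPLICON, which is bisulfite sequencing of PCR amplicons in which strain variants tell the parental origin of each read. Its members are the 11 rows of the deposited table that carry the feature name Prickle1, out of 224 CpGs in 16 regions. Values with 50 or more calls on the allele were used, a call being the reading of 1 CpG on 1 sequenced read as methylated or unmethylated. The level of an allele is the mean percent over its CpGs. The last CpG, at position 93500761, was kept apart, so that a level rests on 10 CpGs.

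Prickle1 encodes a protein with a PET domain and LIM domains that acts in planar cell polarity, the pathway by which cells of a sheet take a common orientation. In that pathway Prickle proteins act together with the membrane protein Vangl and on the opposite side of the cell from Frizzled and Dishevelled. CpGs within the bodies of genes are commonly methylated on both alleles in mammalian tissue, whereas an imprinted control region is methylated on the allele of 1 parent only. A methylated region that is not imprinted therefore serves as a reference for the allele-resolved assay.

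On build GRCm38 the CpGs lie on chromosome 15 from 93500632 to 93500761, a span of 130 bases. They fall within Prickle1 (gene ID 106042, 93499111 to 93596266, minus strand), 1521 bases from the 3′ end of the gene and 18710 bases from the nearest listed window around a transcription start. Whether they are in an exon, an intron or a UTR was not analysed here. The 10 CpGs of the level lie at 93500632, 93500642, 93500651, 93500660, 93500665, 93500668, 93500677, 93500694, 93500719 and 93500729, with 3 to 25 bases between neighbours. The end CpG follows 32 bases after the last of them.

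DNA came from lung and from nucleus accumbens, hypothalamus, prefrontal cortex, cerebellum and hippocampus of 8 female F1 mice of reciprocal crosses between the strains BL6 and CAST. In the old group, mice 1 and 2 (BL6 dam, CAST sire) were 101 weeks and mice 3 and 4 (CAST dam, BL6 sire) 103 weeks of age. In the young group, mice 5 and 6 (CAST dam, BL6 sire) were 8 weeks and mice 7 and 8 (BL6 dam, CAST sire) 9 weeks of age. These ages come from the sample labels, while the protocols state more than 101 weeks for the old animals. No group carried a treatment or an engineered allele per the labels. Each tissue gave 1 library per mouse, and each library is a mixture of the cell types of its tissue. In the comparisons between tissues, ages and crosses, a different share of cell types and a different level per cell can therefore not be told apart.

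The 48 libraries held 376 to 461238 calls over all regions, with a median of 62773. On Prickle1 a library had 0 to 870 calls on an allele at its median CpG. A level was obtained on the maternal allele in 41 and on the paternal allele in 44 libraries. The hippocampus library of mouse 3 gave none, and mouse 8, the shallowest animal, had both alleles in hypothalamus alone. The prefrontal cortex library of young mouse 5 stood apart from all others in its CpG values, as described below. Values without it are given for prefrontal cortex, for the alleles, for the means per mouse and for the CpGs.

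All 85 levels were above 90%, from 90.1 to 98.8%. Averaged over both alleles, nucleus accumbens had 95.9% ± 0.616 (SD, n = 7 mice), with values from 94.7 to 96.5% and a median of 95.9%. Hypothalamus had 95.8% ± 0.344 (n = 8), with values from 95.3 to 96.2% and a median of 95.7%. Cerebellum had 95.7% ± 0.796 (n = 6), with values from 94.5 to 96.6% and a median of 95.7%. These 3 tissues did not differ beyond their spread, with mean within-mouse differences of -0.134 (hypothalamus minus nucleus accumbens) to -0.104 points (cerebellum minus hypothalamus) and exact sign-flip permutation p of 0.453 to 0.844 over mice.

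The other 3 tissues were lower. Hippocampus had 94.7% ± 0.732 (n = 6), with values from 94.2 to 96.1% and a median of 94.5%. Prefrontal cortex had 94.0% ± 1.11 (n = 7), with values from 92.7 to 96.0% and a median of 94.2%. Without the library of mouse 5 prefrontal cortex had 93.7% ± 0.744 (n = 6), with values from 92.7 to 94.4%. Lung was lowest with 92.4% ± 1.03 (n = 7), with values from 90.6 to 93.7% and a median of 92.5%. The values of lung did not overlap those of hippocampus, cerebellum, hypothalamus or nucleus accumbens, and they overlapped those of prefrontal cortex.

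Within mice, each of the 5 brain areas was above lung in every mouse with both values, which were 6 mice for hippocampus and cerebellum and 7 for the others. Prefrontal cortex was below nucleus accumbens in 7 of 7 mice, by a mean of 1.90 points, and below cerebellum in 6 of 6 mice, by 2.02 points. Hippocampus was below nucleus accumbens in 6 of 6 mice, by 1.35 points. Over the 15 pairs of tissues the lowest adjusted p was 0.0521 (exact sign-flip permutation tests, Benjamini-Hochberg), reached by 9 pairs, so no pair passed a threshold of 0.05. With 7 mice the smallest unadjusted p of this test is 0.0156, and with 6 mice 0.0313. Of the 9 pairs, all but prefrontal cortex with hypothalamus were at the smallest p that their mice allow. Without the library of mouse 5, prefrontal cortex was below nucleus accumbens by 2.13 points and above lung by 1.45 points, in 6 of 6 mice each, and the lowest adjusted p over the 15 pairs was again 0.0521 (exact permutation).

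**Figure D1:**
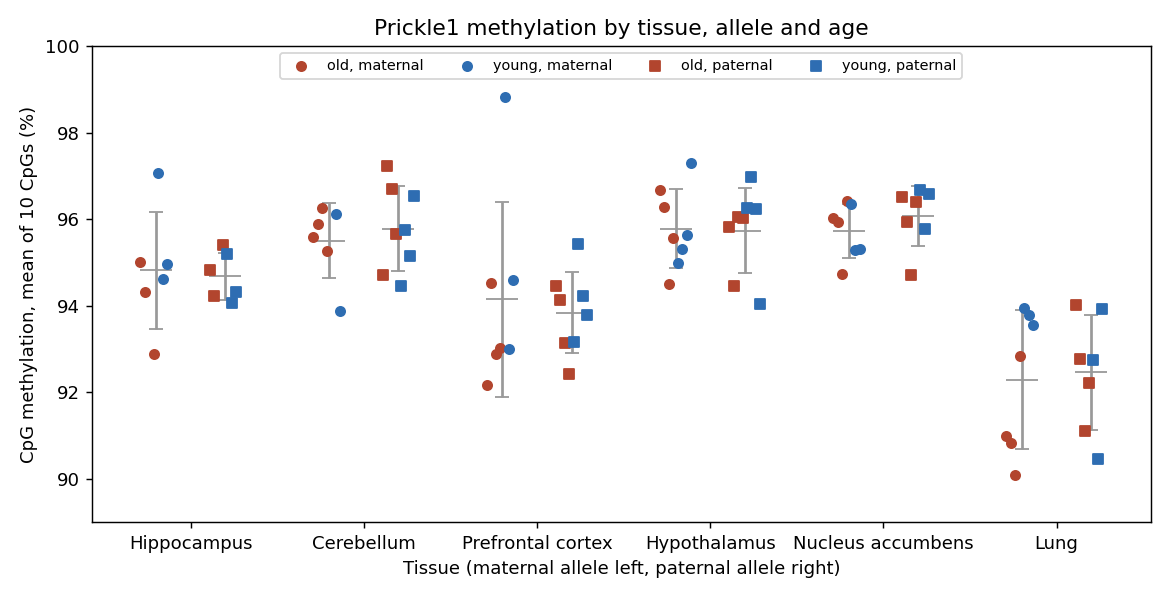
Prickle1 methylation (percent, mean of the 10 CpGs, axis from 89 to 100%) in each library, with the maternal allele left and the paternal allele right within a tissue. Grey bars give the mean and SD over mice. Lung holds the lowest values on both alleles, and the maternal prefrontal cortex value of young mouse 5, at 98.8%, is the highest of all.

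The brain areas were then set against lung, the study's control organ, on each allele. Both alleles were higher in 4 of the 5 areas than in lung. In nucleus accumbens the maternal level was 95.7% ± 0.626 (n = 7) against 92.3% ± 1.61 (n = 7) in lung, a difference of 3.43 points (95% interval 2.05 to 4.81, limma with Benjamini-Hochberg adjustment, adjusted p = 0.00151). The paternal level was 96.1% ± 0.691 against 92.5% ± 1.33, a difference of 3.62 points (2.44 to 4.79, limma adjusted p = 0.000433). In that area 29.4% of the 17 region-alleles tested were called, a region-allele being a region on 1 parental allele. Of the Prickle1 alleles 2 of 2 were called.

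Hypothalamus was above lung by 3.37 (maternal) and 3.24 points (paternal; limma adjusted p = 0.00158 and 0.00221), beside 29.4% called among all region-alleles. Cerebellum was above lung by 3.36 and 3.27 points (limma adjusted p = 0.00482 and 0.00201), beside 17.6%. Hippocampus was above lung by 2.38 and 2.15 points (limma adjusted p = 0.0335 for both), beside 18.8%. The hippocampus calls were the least stable. With the mouse as a term in the fit (the same animal in both tissues) they had an adjusted p of 0.0779. The maternal call was lost without mouse 1, 2, 3, 5 or 7 and the paternal call without any 1 of mice 1 to 7, with differences that stayed between 1.84 and 2.77 points.

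Prefrontal cortex was not called, beside 0.00% of 17 region-alleles. It was above lung by 1.85 points on the maternal allele (95% interval -0.0258 to 3.73) and by 1.26 points on the paternal allele (0.0279 to 2.49), with a limma adjusted p of 0.224 for both, and 1 of the 2 had an unadjusted p below 0.05. Without the library of mouse 5 the differences were 1.24 and 1.30 points. By exact sign-flip permutation tests on the within-mouse differences, adjusted over the 10 tests of area and allele, all 10 passed, with adjusted p of 0.026 to 0.0469. Without the library of mouse 5 the maternal allele of prefrontal cortex no longer passed (1.35 points, 5 of 6 mice, adjusted exact permutation p = 0.0938), and the other 9 did. Over all libraries, brain was the higher tissue in every mouse with both values, except on the maternal allele of prefrontal cortex (6 of 7 mice).

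Median calls per CpG behind these levels ran from 85 (maternal allele, nucleus accumbens) to 230 (maternal allele, cerebellum) over tissues and alleles. Lung was thus neither the deepest nor the shallowest tissue at Prickle1. The part of depth in the difference was not tested.

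The 10 CpGs were not alike, and the lowest and the 2 highest were the same in every tissue. The CpG at 93500729 was the lowest of the 10 in all 6 tissues, with tissue means of 88.8 to 94.4%. It was the lowest CpG in 30 of the 84 library-alleles with all 10 CpGs and the highest in 0. The CpGs at 93500677 and 93500719 took the top 2 ranks in each tissue, with tissue means of 96.6 to 97.6% and 96.5 to 97.7%. They were above the mean of the others in 76 of 84 library-alleles each.

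Set against the mean of the other 9 CpGs within each mouse, 93500677 was higher by 2.84 points ± 0.521 (SD, n = 8) and 93500719 by 2.70 ± 1.09, in 8 of 8 mice each. The CpG at 93500729 was lower by 3.34 points ± 1.12 and 93500642 by 1.49 ± 0.448, with 0 of 8 mice above. These 4 had an adjusted p of 0.0195 and an unadjusted p of 0.00781, the smallest that 8 mice allow (exact sign-flip permutation test, Benjamini-Hochberg over the 10 CpGs). The CpG at 93500660 was lower by 1.44 points (exact permutation, adjusted p = 0.0313), in 7 of 8 mice. This last call was lost at a minimum of 100 calls (-1.30 points, adjusted exact permutation p = 0.104) and without any 1 of mice 1, 2, 3, 4, 6, 7 or 8 (adjusted p of 0.0521 to 0.0625). The other 5 CpGs, at 93500632, 93500651, 93500665, 93500668 and 93500694, lay within 0.594 points of the rest and did not pass. Without the prefrontal cortex library of mouse 5, 8 of the 10 CpGs passed, 93500665, 93500668 and 93500694 being the added ones.

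**Figure D2:**
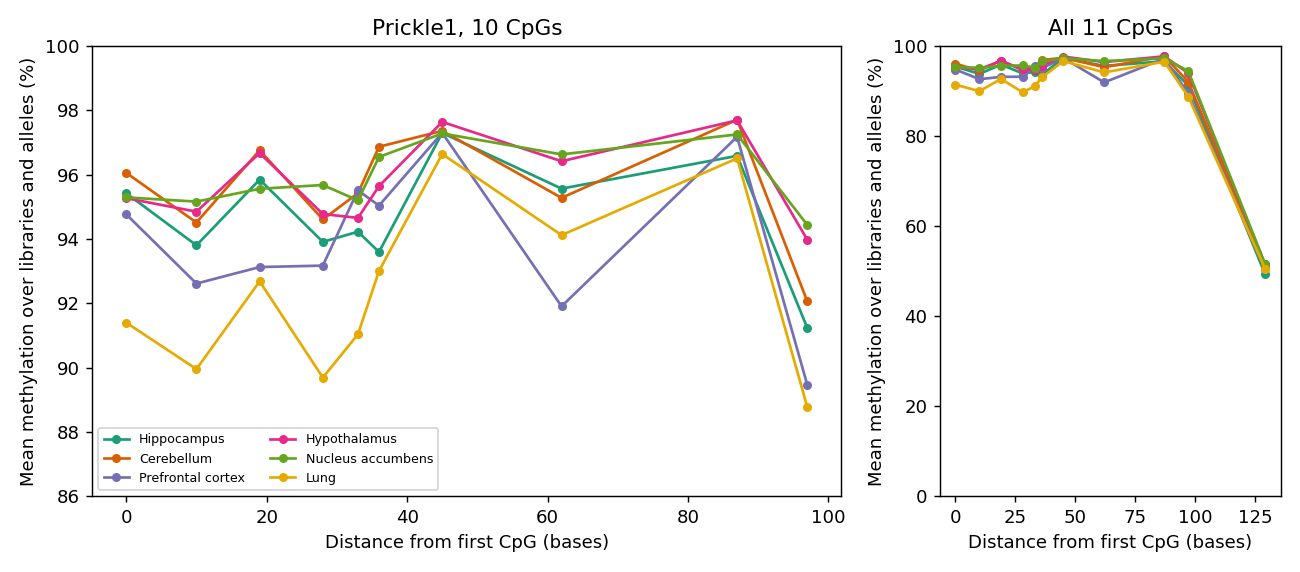
Mean methylation (percent, over libraries and both alleles) of each Prickle1 CpG against its distance in bases from the first CpG, 1 line per tissue. Left, the 10 CpGs on an axis from 86 to 100%, with the lowest value of each tissue at 97 bases. Right, all 11 CpGs on an axis from 0 to 100%, with the end CpG near 50% in every tissue.

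The brain minus lung difference passed at 7 of the 10 CpGs in at least 1 area, and how far the CpGs differ from each other in it was not tested. Of the 100 comparisons of the 10 CpGs (5 areas, 2 alleles), 91 were higher in brain, with a median difference of 3.23 points, and 23 passed (limma, Benjamini-Hochberg over all CpG-alleles of the table). Nucleus accumbens had 11 of 22 Prickle1 CpG-alleles called, end CpG included, beside 21.1% of 223 CpG-alleles in all. Hypothalamus had 7 beside 15.2%, cerebellum 3 beside 9.42%, hippocampus 2 beside 8.88% of 214, and prefrontal cortex 0 beside 0.00%, with 4 at an unadjusted p below 0.05. The median Prickle1 difference was 1.60 to 3.50 points by area, against -0.0312 to 0.496 over all CpG-alleles. Every called CpG-allele was higher in brain.

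At 93500632, the first CpG, all 10 differences were above 0, from 3.18 to 5.43 points, and 5 were called. These were 4.11 points on the maternal allele in hippocampus (limma adjusted p = 0.043), 5.43 on the paternal allele in cerebellum, 4.07 on the maternal allele in hypothalamus, and 3.43 and 4.36 on the maternal and paternal allele in nucleus accumbens (limma adjusted p of 0.0447 to 0.0493). Lung had a mean of 91.4% there, and the brain areas had 94.8 to 96.1%. At 93500660 lung had 89.7% and nucleus accumbens 95.7%, and the maternal difference of 6.67 points was the largest gain of all 100 (limma adjusted p = 0.0174). Also called there were the paternal allele in nucleus accumbens with 5.30 points and the maternal allele in hypothalamus with 5.72 and in cerebellum with 5.31 points (limma adjusted p = 0.0157, 0.02 and 0.0447). At 93500665 the paternal difference in nucleus accumbens of 4.82 points had the lowest adjusted p (limma, 0.00345), and the paternal allele was also called in hippocampus (3.32 points), cerebellum (4.74) and hypothalamus (4.31).

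At 93500642, 4 differences were called, 5.24 and 4.31 points on the maternal and paternal allele in hypothalamus and 4.99 and 5.42 points in nucleus accumbens. At 93500729, 3 were called, 6.05 points on the paternal allele in hypothalamus and 4.96 and 6.37 points on the maternal and paternal allele in nucleus accumbens. At 93500668, 2 were called, both on the maternal allele (3.70 points in hypothalamus and 3.86 in nucleus accumbens), and at 93500694 the maternal allele in nucleus accumbens (3.18). The 2 largest hippocampus differences, 4.93 points at 93500660 and 4.73 at 93500642 on the maternal allele, did not pass (limma adjusted p = 0.117 and 0.0719). Neither did the 2 largest of prefrontal cortex, -7.75 points at 93500694 on the paternal allele, which holds the value of mouse 5 described below, and 4.97 points at 93500660 on the maternal allele (limma adjusted p = 0.686 and 0.229). Without that library they were -0.343 and 4.28 points (limma adjusted p = 0.922 and 0.181), and the maternal allele of 93500694 was called with 3.86 points (limma adjusted p = 0.0223).

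The CpGs at 93500677 and 93500719, the highest of the amplicon, had no called difference, and neither had 93500651 or the end CpG. Their differences ran from -0.713 to 2.12 points at 93500677, with 6 of 10 above 0, and from -0.493 to 1.92 points at 93500719. Lung had 96.6 and 96.5% at these CpGs, close to the levels in brain. The counts of called CpG-alleles moved with single mice. Without mouse 1 or 2 nucleus accumbens had 3, and without mouse 7 it had 5. Hypothalamus had 0 without mouse 4, 1 without mouse 6, 3 without mouse 1 or 2 and 4 without mouse 3. Cerebellum had 0 without mouse 2, 3 or 4 and 5 without mouse 7. Hippocampus had 0 without mouse 1, 3 or 6.

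**Figure D3:**
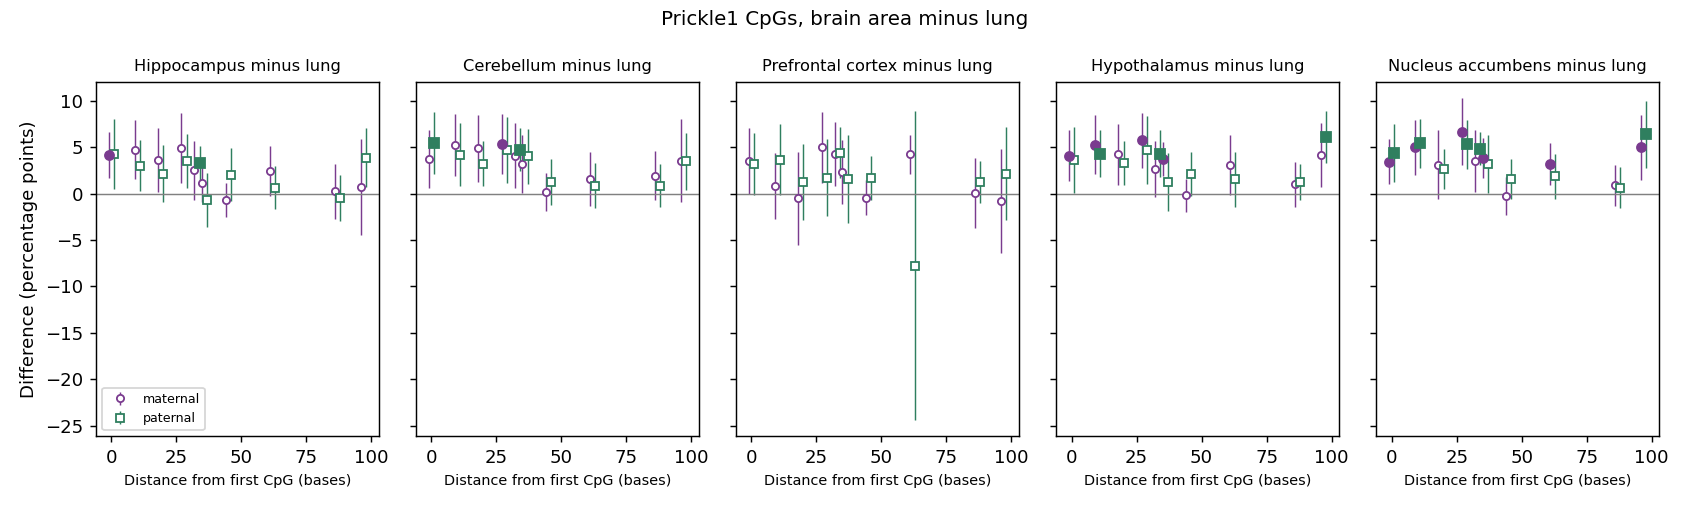
Difference between each brain area and lung in percentage points (limma, bars are 95% intervals) for the 10 Prickle1 CpGs, by distance in bases from the first CpG. Filled symbols passed an adjusted p of 0.05, circles are maternal and squares paternal alleles. The filled symbols lie at 3.18 points or above, and the CpGs at 45 and 87 bases lie between -0.713 and 2.12 points in every panel.

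Old and young mice were compared within each tissue with the cross as covariate, the study's central contrast. No Prickle1 allele was called in any tissue, beside 0.00% of the 14 to 15 region-alleles tested in each. Differences (old minus young) on the maternal and paternal allele were 0.749 and 0.602 points in cerebellum, -0.0612 and -0.292 in hypothalamus and 0.131 and -0.546 in nucleus accumbens. They were -1.62 and 0.50 points in hippocampus, where the maternal difference ran from -2.95 points without mouse 7 to -0.293 points without mouse 4, and was also -0.293 points at a minimum of 100 calls. The 95% intervals of cerebellum, hypothalamus and nucleus accumbens lay between -2.20 and 3.27 points.

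The lowest p was on the maternal allele of lung. The old mice had 91.0, 90.8, 90.1 and 92.8% (mice 1 to 4), a mean of 91.2% ± 1.17. The young mice had 93.9, 93.8 and 93.6% (mice 5 to 7), a mean of 93.8% ± 0.19. All old values were below all young values. The fitted difference was -2.49 points (95% interval -4.50 to -0.484), with an unadjusted p of 0.0239 and a limma adjusted p of 0.179. The exact permutation p was 0.0571 (adjusted 0.686), with 0.0286 the smallest possible unadjusted p for 4 against 3 mice. At a minimum of 20 calls the fitted value was -1.13 points (adjusted p = 0.68 by limma), and without 1 mouse it ran from -3.21 (mouse 4) to -1.83 points (mouse 3). On the paternal allele old minus young was -0.178 points (-2.24 to 1.88), and old (91.1 to 94.0%) and young (90.5 to 93.9%) overlapped.

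In prefrontal cortex the maternal level was 92.2, 94.5, 92.9 and 93.0% in old mice 1 to 4 and 98.8, 93.0 and 94.6% in young mice 5 to 7. The fitted difference was -2.28 points (limma adjusted p = 0.53), and -0.661 points without the library of mouse 5. The paternal difference was -0.612 points (limma adjusted p = 0.714), from 93.5% ± 0.929 in old to 94.1% ± 0.961 in young mice. With the end CpG counted in the level, the paternal difference became -2.54 points (limma adjusted p = 0.113). The paternal alleles of young mice 7 and 8 had no end CpG at 50 calls in this tissue, so that it did not enter their levels.

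CpG by CpG, 0 of 22 CpG-alleles passed adjustment for age in any tissue (limma, smallest adjusted p 0.346), beside 0.00% of all CpG-alleles of the table in each. Over the 6 tissues 13 had an unadjusted p below 0.05, and edgeR was not run on single CpGs. These were 3 each in hippocampus, prefrontal cortex and lung, 2 in nucleus accumbens and 1 each in cerebellum and hypothalamus. The whole table had 7, 11, 25, 7, 15 and 2 in the same order, of 200 or more tested per tissue. The 13 include the maternal end CpG in hypothalamus, nucleus accumbens and prefrontal cortex, the first with the lowest p (limma, 0.00574). Whether Prickle1 had more than its share was not tested. The old mice had the higher value at 13 of 22 CpG-alleles in cerebellum and at 4 to 8 of 22 in the other tissues. The largest differences of the 10 CpGs were those at 93500694 on the paternal allele of prefrontal cortex and at 93500660 on its maternal allele. The first was 14.7 points (limma adjusted p = 0.646), with 94.5% ± 1.07 in old and 79.8% ± 30.2 in young mice, where mouse 5 alone had 34.6%. The second was -6.34 points (limma adjusted p = 0.631). Without the library of mouse 5 they were -0.758 and -5.12 points (limma adjusted p = 0.871 and 0.39).

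In lung the largest was -6.10 points at 93500651 on the maternal allele, with 89.6% ± 3.29 in old and 95.1% ± 2.97 in young mice (limma adjusted p = 0.346). The groups did not overlap, with young mouse 8 not among them. Elsewhere the largest at the 10 CpGs were 5.27 points at 93500668 (cerebellum, maternal), 4.74 at 93500694 (hippocampus, paternal), 3.60 at 93500665 (nucleus accumbens, maternal) and 2.57 at 93500694 (hypothalamus, maternal). The end CpG gave the widest difference in every tissue but prefrontal cortex. It ran from -12.6 points (hippocampus, paternal, 2 old and 3 young mice) to 7.67 points (nucleus accumbens, maternal, 4 old and 2 young mice). In all tissues its adjusted p was 0.537 or above (limma). Without the library of mouse 5 the end CpG was also the widest in prefrontal cortex, with -7.50 points on the maternal allele (limma adjusted p = 0.222).

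Averaged over alleles and over tissues, after each tissue was set to the same mean, old mice had 94.5% ± 0.332 and young mice 95.0% ± 0.487 (n = 4 each), a difference of -0.494 points (exact permutation p = 0.143, smallest possible 0.0286). The plain means, without that centring, were 94.5% ± 0.332 and 95.2% ± 0.473, with old minus young at -0.699 points (exact permutation p = 0.0571). Without the prefrontal cortex library of mouse 5 the centred difference was -0.399 points (exact permutation p = 0.143). The 2 age groups overlapped with and without centring. The value of mouse 8 rests on 1 tissue.

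The age difference of each brain area was also set against that of lung, within mice. Of the Prickle1 alleles 1 of 2 was called for nucleus accumbens, the maternal allele, with 2.63 points (limma adjusted p = 0.0383), beside 21.4% of 14 region-alleles. Leaving out any of mice 1 to 7 ended this call (adjusted p of 0.0559 to 0.329). None was called for cerebellum, beside 7.14%, for hippocampus or hypothalamus, beside 6.67% each, or for prefrontal cortex, beside 0.00%. Of these 8 tests, maternal hypothalamus with 2.76 points was the 1 at an unadjusted p below 0.05 (limma adjusted p = 0.191), and edgeR was not run on this contrast.

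**Figure D4:**
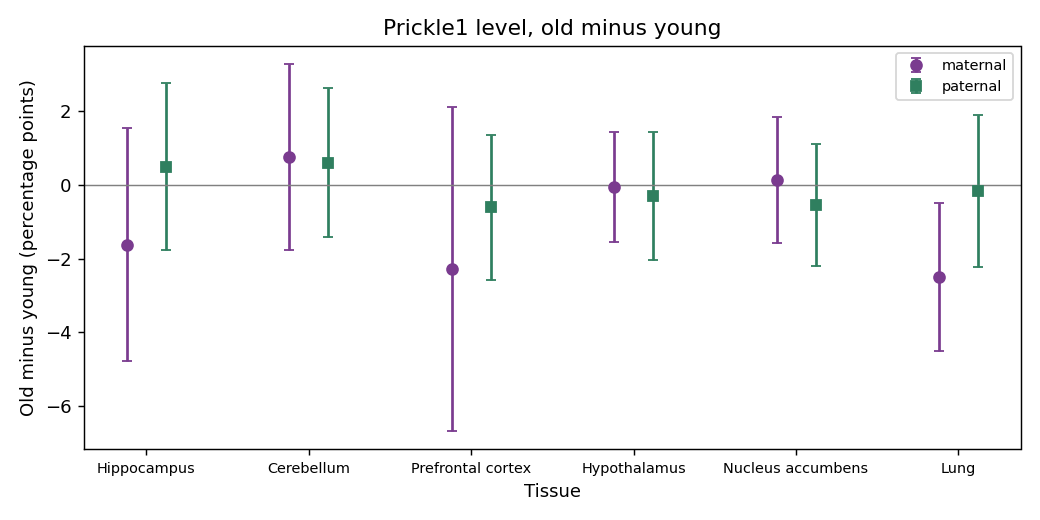
Difference between old and young mice in the Prickle1 level, in percentage points, by tissue and allele (limma, bars are 95% intervals). The maternal allele of lung, at -2.49 points, has the only interval that does not cross 0, and it did not pass adjustment.

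Whether the alleles differed by parent or by strain was asked next. Within libraries, the maternal minus paternal difference ran from -3.02 to 5.66 points over 41 libraries, with a median of -0.255 points. It was above 0 in 20 libraries and within 2 points in 34. Over mice it was 0.303 points ± 1.37 (n = 8, exact sign-flip permutation p = 0.656), and 2 of 8 mice had the higher maternal mean. The BL6 minus CAST difference was 0.208 points ± 1.39 (exact permutation p = 0.797), with 4 of 8 mice above 0. Mouse 8 entered both means with 1 library, hypothalamus, where the maternal allele, from BL6, was 3.27 points above the paternal allele. Without mouse 8 both means turned negative. Without the prefrontal cortex library of mouse 5 the library differences ran from -3.02 to 3.32 points over 40 libraries, and the means over mice were 0.17 points for maternal minus paternal and 0.341 points for BL6 minus CAST (exact permutation p = 0.961 and 0.688). Maternal and paternal levels of a library moved together to some degree, with Pearson's r of 0.53 and Spearman's rho of 0.576 over the 41 libraries, which share mouse, tissue and library between the alleles. Without that library they were 0.641 and 0.653 over 40.

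By tissue, no maternal minus paternal difference passed, the lowest exact permutation p being 0.125 (adjusted 0.75) in nucleus accumbens, where it was -0.356 points. The strain of the allele gave its lowest p in hypothalamus. There the BL6 allele had 96.4% and the CAST allele 95.1%, a difference of 1.29 points ± 1.13 with 7 of 8 mice above 0 (exact permutation p = 0.0234, adjusted 0.141 over 6 tissues). In lung the sign was opposite, with 91.7% on the BL6 and 93.1% on the CAST allele, a difference of -1.35 points ± 1.53 with 1 of 7 mice above 0 (exact permutation p = 0.0781, adjusted 0.234). The difference between these tissues was not tested.

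The reciprocal crosses did not differ beyond their spread at the level of the mouse. Mice with a BL6 mother had 94.7% ± 0.0876 and mice with a CAST mother 94.7% ± 0.709 (n = 4 each), a difference of 0.00551 points with each tissue set to the same mean (exact permutation p = 0.971). The plain means were 95.0% ± 0.456 and 94.7% ± 0.624, 0.306 points apart (exact permutation p = 0.371), and without the prefrontal cortex library of mouse 5 the centred difference was 0.0669 points (exact permutation p = 0.743). By tissue and allele 0 of 12 cross differences passed, beside 0.00% in each tissue, and 0 had an unadjusted p below 0.05 (limma). The largest was 1.97 points on the paternal allele of lung (95% interval -0.0925 to 4.03, limma adjusted p = 0.374).

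The end CpG at 93500761 lay far below the mean of the other 10. It had 49.8% on the maternal allele (38 libraries) and 51.8% on the paternal allele (36 libraries), with values from 39.1 to 65.5%, while no level of the other 10 was below 90.1%. A single value of the other 10, that of paternal 93500694 in prefrontal cortex of mouse 5 (34.6%), was below the end CpG of the same allele and library (52.1%). Tissue means lay between 48.6 and 54.7%. Its calls were 70.04% of those of the median Prickle1 CpG. The SD between mice was 0.973 to 7.61 points by tissue and allele, against 3.85 to 5.56 points from counting error alone (binomial), which covers counting error only.

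The other CpGs with a value near 50% on both alleles were few. Of all CpGs of the table with a value on both alleles, 2 lay between 40 and 60% on each, the Prickle1 end CpG and 1 CpG of H13 on chromosome 2 at 152686958, with 48.1 and 48.6%. The nearest Prickle1 neighbour, 93500729, was the lowest of the other 10 at 91.7%. Why the end CpG stands apart was not tested.

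The prefrontal cortex library of young mouse 5 had a pattern of its own. In this library 17 of 20 CpG-alleles were at 99% or above, while the next library, cerebellum of mouse 2, had 6 of 20. On the paternal allele 9 CpGs had 99.2 to 100% of 130 calls, and 93500694 had 34.6% (95% Wilson interval 27.0 to 43.1). The next-lowest value of any of the 10 CpGs in any library was 81.6%. On the maternal allele 93500642 had 91.0%, and the other 9 had 98.9 to 100%. The end CpG was at 48.7 and 52.1%, within the range of the other libraries.

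Some other regions of this library also lay far from the other prefrontal cortex libraries. Paternal Plagl1 had 62.8% (others 1.31 to 4.82%), maternal Gnas 2.65% (76.8 to 87.4%), maternal H13 46.1% (79.9 to 93.2%) and paternal H13 29.4% (4.62 to 13.8%). Plagl1, Gnas and H13 are imprinted regions. Other values were close to or within the range, such as maternal Impact with 90.2% (83.5 to 91.4%), paternal Gnas with 9.13% (7.96 to 18.9%) and the control region Sox2ot with 3.69 and 3.93% (maternal and paternal; highest others 3.43 and 3.10%). Of 13 region-alleles besides Prickle1 with a value there and in 3 or more other prefrontal cortex libraries, 11 lay outside the range of those libraries. With this library left out, paternal 93500694 had 95.8% ± 2.23 over 43 libraries in place of 94.4% ± 9.48 over 44.

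**Figure D5:**
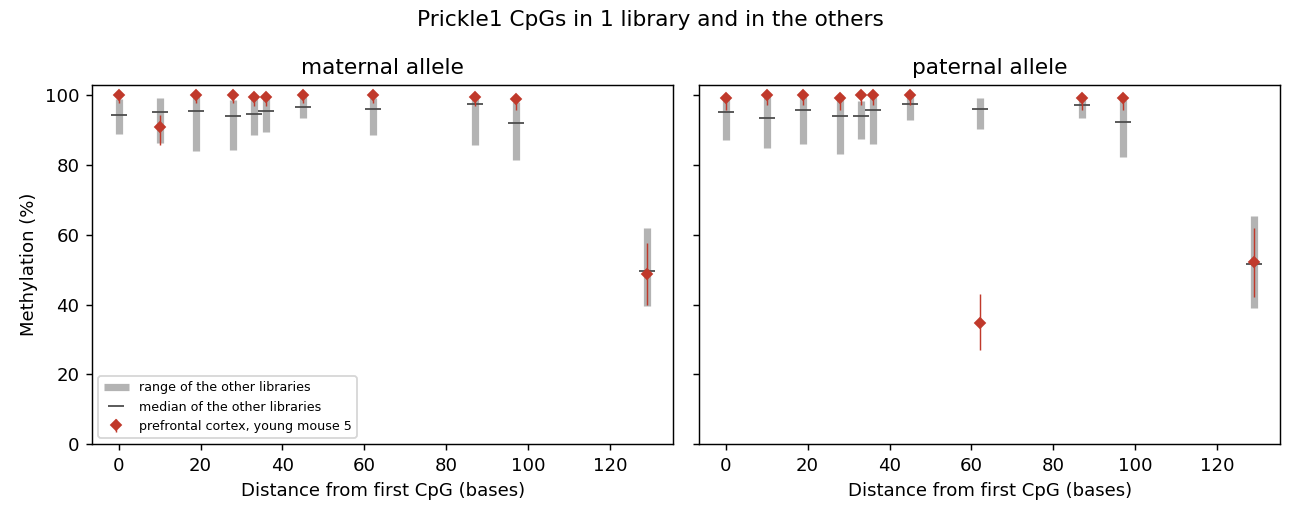
Methylation (percent) of the 11 Prickle1 CpGs in the prefrontal cortex library of young mouse 5 (diamonds with 95% Wilson intervals) against the range and median of all other libraries (grey), by distance in bases from the first CpG. On the paternal allele the CpG at 62 bases, at 34.6%, lies far below the range of the others, and most other CpGs lie at the top of theirs.

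Among single CpGs, the SD between mice was above counting error in most groups. Over 120 groups of CpG, allele and tissue, the median ratio of the SD between mice to the binomial SD was 1.22, and 29 groups were below 1. For the level, with the CpGs of a read taken as alike, the SD exceeded counting error only in maternal prefrontal cortex (2.25 against 1.83 points). With the CpGs taken as independent, the SD was below counting error only in paternal hippocampus (0.552 against 0.631) and maternal nucleus accumbens (0.626 against 0.644).

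Prickle1 was set beside 4 other regions, the control regions Klf4 and Sox2ot, which are unmethylated, and the maternal alleles of Plagl1 and Commd1, the imprinted regions with the highest maternal levels. Maternal Prickle1 was above maternal Plagl1 by 3.72 points ± 1.41 (SD, 7 of 7 mice, adjusted exact permutation p = 0.0156). It was above maternal Commd1 by 5.41 points ± 5.89 (8 of 8 mice, adjusted exact permutation p = 0.0117). The SD of the Commd1 difference was larger than its mean, so the size of that gap varied widely between mice. The gap between brain and lung was 2.14 points wider at Prickle1 than at Klf4 on the maternal and 2.18 points wider on the paternal allele, in 7 of 7 mice each (adjusted exact permutation p = 0.0469). It was not shown to differ from that of Sox2ot, Plagl1 or Commd1, with differences of 0.86 to 2.47 points and adjusted exact permutation p of 0.225 to 0.25. Apart from those with maternal Klf4, these comparisons over mice include the prefrontal cortex library of mouse 5. Values without that library are not given for them. Klf4 lay near the floor, with 1.50% (maternal) and 1.62% (paternal). Sox2ot was above lung by 3.95 and 3.66 points in hypothalamus and by 2.90 and 3.70 points in nucleus accumbens (limma adjusted p of 0.00158 to 0.0174). In hippocampus, cerebellum and prefrontal cortex Sox2ot was not called, with differences of -1.08 to 0.00479 points.

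The regions whose level rose and fell over libraries most like that of Prickle1 were Sox2ot (Spearman's rho 0.384 over 39 libraries) and Mest (0.362 over 21). H13 went the opposite way, with a rho of -0.400 over 41 libraries. The correlations with Sox2ot and Mest are weak, and libraries share mice and tissues. Those with Sox2ot and H13 include the prefrontal cortex library of mouse 5.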

How the data were processed

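Methylation was read in 48 libraries, 1 per mouse and tissue. The 24 labelled samples of lane 7950 were not used here. The deposited table gives, per CpG and genome, the percent of calls that were methylated, with no further normalization, and in a second block the deposited count of calls. Percent times calls came to whole calls within 0.000266. The submitters' processing notes name GRCm38 and the tools Bismark 0.14.4, Trim Galore 0.6.6 and bcl2fastq 2.20. The splitting of reads by genome and any removal of PCR copies are not given in the sources that were used, so intervals cover counting error only. BL6 was assumed to be genome 1, since no label says so; the maternal level was then the higher in 237 of 238 pairs of imprinted region and library.

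A level needed at least 50% of the CpGs of a region, and an age test at least 2 mice per age. Differences in percent were fitted across the whole table with limma 3.58.1 (R 4.3.3), two-sided, per tissue for age (cross as covariate) and per brain area against lung (age and cross as covariates). Benjamini-Hochberg adjustment ran over all region-alleles or CpG-alleles of a fit, with a threshold of 0.05. Exact two-sided permutation and sign-flip tests used mice as units; for age and cross, the mean of a mouse was taken after each tissue was centred, since mice had different tissues. The edgeR 4.0.16 quasi-likelihood test on calls, other call minimums, the logit scale, pooled calls and left-out mice were alternatives. The fits were tested on simulated data with shifts larger than the Prickle1 differences given here, and without effects shared by the tissues of a mouse. How well they find differences of the size seen at Prickle1 was not tested. The labels number the same animal across tissues, which pairs the tissues; the median correlation of same-mouse deviations was -0.377 to 0.752 over 15 tissue pairs (median 0.25). Mice are separate animals. The text names all 11 CpGs and, in each comparison of CpGs, each called CpG-allele and the 2 whose differences were largest; regions are the 2 most alike by Spearman's rho and those set as comparators. The members and lists were chosen with earlier results of these data known. Gene positions came from RefSeq tables of GRCm38.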

Additional observations from a re-analysis of the deposited data

Results flagged for a closer look

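On the paternal allele of old hypothalamus, mouse 2 had 94.4%, while the other 3 old mice had 95.8 to 96.1%. Its gap to the nearest mouse was a larger part of the group's range than the 95% limit for 4 samples allows. Of 22 groups tested for such a sample this was 1, and chance alone gives about 1 in 20.

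On the maternal allele the age difference in nucleus accumbens was 2.63 points above that in lung (95% interval 1.00 to 4.25, limma on within-mouse differences, adjusted p = 0.0383), the test of the difference between the 2 tissues. Of 14 region-alleles in that comparison 21.4% were called. Neither tissue had a called age difference by itself, with 0.131 points in nucleus accumbens and -2.49 points in lung. Leaving out any of mice 1 to 7 ended the call (2.15 to 3.01 points, limma adjusted p of 0.0559 to 0.329). For hypothalamus the same difference was 2.76 points (limma adjusted p = 0.191) and for cerebellum 3.23 points (limma adjusted p = 0.457). All of these differences draw on the same lung libraries.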

How the results depend on the processing

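Of 534 results under an alternative, 449 counted as the same. For a difference this meant the same direction and side of the threshold. For a number of called CpGs it meant a value within 1.5 times the main one. The cause of the other changes was not tested. Each brain minus lung difference stayed above 0 under all alternatives run. In hippocampus (maternal, paternal) the calls were lost with the end CpG included (2.23, 2.51 points), on the logit scale (0.595, 0.508 log2 odds), with edgeR on calls (0.594, 0.498) and with the mouse as a replicate block (2.16, 1.99), and at 100 calls the paternal one (1.74); the paternal cerebellum call was lost at 100 calls (2.76). The block moved the called CpG-alleles of nucleus accumbens to 6 and moved no other count of calls by over 1.5 times and no other region call. Without 1 mouse, hippocampus ran from 2.05 to 2.77 (maternal) and 1.84 to 2.50 (paternal).

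Called CpG-alleles in nucleus accumbens were 6 at 20 calls, 3 at 100 calls and 3 to 11 without 1 mouse. In hypothalamus they were 1, 4 and 0 to 8, and in cerebellum 6, 0 and 0 to 5. Hippocampus had 1 at 100 calls and 0 to 2 without 1 mouse, and prefrontal cortex 2 and 0 to 1. Without the prefrontal cortex library of mouse 5, chosen after seeing the data, prefrontal cortex had 1 and 8 of 10 CpGs differed from the rest.

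Old minus young differences that were not called changed sign with the end CpG in paternal cerebellum (-0.419), maternal nucleus accumbens (-0.542) and paternal lung (0.419), at 100 calls in maternal hypothalamus (0.0916), and in paternal lung at 20 calls (0.296), without the cross covariate (0.15) and with the block (0.14). Without 1 mouse they ran from -0.886 to 0.0237 in paternal prefrontal cortex, -0.405 to 0.261 and -0.790 to 0.0903 in maternal and paternal hypothalamus, -0.236 to 0.642 in maternal nucleus accumbens and -0.806 to 0.336 in paternal lung. Maternal minus paternal became -0.151 at 20 calls and -0.0146 with the end CpG (-0.121 to 0.438 without 1 mouse), BL6 minus CAST -0.255 and -0.468 at 20 and 100 calls (-0.229 to 0.442), and the cross difference -0.224 at 100 calls (-0.210 to 0.297). A minimum of 200 calls left too few libraries for any test.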
